A study of Homo sapiens with 8 samples.

Results

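The 10 genes described here, COQ2, COQ3, COQ4, COQ5, COQ6, COQ7, COQ8A, COQ9, PDSS1 and PDSS2, encode the enzymes and partner proteins that build coenzyme Q. They were found by their Ensembl identifiers among the 37441 genes of an RNA-seq count table. All 10 were kept by the filter on low counts (a sum of 10 or more across the table), which 18203 genes passed. COQ2 was chosen by its high count in the resistant NCI-H1703R libraries relative to NCI-H1703, and the other 9 genes were taken for belonging to the same pathway. Every value of COQ2 that involves the NCI-H1703 or NCI-H1703R libraries is therefore given as a description, without a test.

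The libraries came from 2 established human non-small cell lung cancer lines, NCI-H1581 and NCI-H1703, each as a sensitive variant and as a variant resistant to CPL304110, an inhibitor of the fibroblast growth factor receptors (FGFR). The resistant variants, NCI-H1581R and NCI-H1703R, were selected over 4 to 6 months of culture in rising concentrations of the inhibitor, from 50 nM up to 2.5 µM for NCI-H1581R and up to 5 µM for NCI-H1703R. NCI-H1581 was grown in DMEM/F12 and NCI-H1703 in RPMI medium, both with serum. Each variant gave 2 libraries from cells harvested 24 h after a medium change, and the whole procedure was carried out a second time to obtain replicate 2. Whether inhibitor was present at harvest, and whether a resistant variant is 1 clone or a pool, is not given in the sources used here. The libraries held between 33800389 and 40031710 counts.

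Coenzyme Q, or ubiquinone, is a lipid of the inner mitochondrial membrane that carries electrons from complexes I and II and from several other dehydrogenases to complex III, and it also acts as an antioxidant in other membranes. Its long isoprenoid tail is made by a prenyl transferase formed by PDSS1 and PDSS2 from units that come from the mevalonate pathway. COQ2 joins this tail to the ring precursor 4-hydroxybenzoate, the step that commits both parts to the lipid. The ring is then modified by COQ3, COQ5, COQ6 and COQ7, which work in an assembly with COQ4 and with the lipid-binding protein COQ9, while COQ8A is an atypical kinase-like ATPase that the pathway needs.

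COQ2 (ENSG00000173085) lies on the minus strand of chromosome 4 at positions 83261536 to 83284914 of GRCh38, as annotated in GENCODE. Its MANE Select transcript, the standard protein-coding transcript chosen for a gene, is 1525 bases long and has 7 exons. No other annotated gene overlaps it. Of the 2797 different 31-base words in its annotated transcripts, 0 occurred in transcripts of another gene, so that no stretch of that length is shared with another annotated gene. The stretch directly upstream of every annotated start of COQ2 is shown because COQ2 was the member whose level differed most between libraries. It covers chr4:83284915-83285048 on the minus strand and is written 5′ to 3′ with the 4 CpG dinucleotides in capitals.
COQ2 upstream: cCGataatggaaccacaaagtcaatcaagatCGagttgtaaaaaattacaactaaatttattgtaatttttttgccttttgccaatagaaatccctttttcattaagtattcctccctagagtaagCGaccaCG
In the RefSeq promoter window of COQ2 on GRCh38.p14, which runs from 250 bases before the RefSeq start into the first exon, GC content upstream of the start was 45.6% with 9 CpG dinucleotides. The medians over 35116 RefSeq windows of the same length were 58% and 11. Part of the site bound by NRF1, a regulator of genes for mitochondrial proteins, has the letters GCGCATGC. Searched on both strands, the window held these letters, beginning 23 bases before the start. It also held TGACGTCA, the cAMP response element, beginning 4 bases before the RefSeq start, with no overlap between the motifs. Both motifs lay within the GENCODE span of COQ2 given above, and so outside the upstream stretch shown. The NRF1 letters were present in 3.05% and the cAMP response element in 1.85% of all windows. Neither was present in the windows of COQ5, COQ6, COQ7, COQ8A, COQ9, PDSS1 and PDSS2, and COQ3 and COQ4 were not analysed here.

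COQ2 mRNA was close to the lower end of detection in sensitive NCI-H1703 and abundant in NCI-H1703R. The 2 NCI-H1703 libraries held 35 and 33 COQ2 counts, which correspond to 0.946 and 0.987 CPM (counts scaled to library size, with TMM factors). The 2 NCI-H1703R libraries held 1122 and 1199 counts, or 29.7 and 31.6 CPM. The replicates of each variant were thus within 1.07-fold of each other, and the means were 0.967 ± 0.029 CPM (SD, n = 2) and 30.7 ± 1.40 CPM (SD, n = 2), a ratio of 31.7. This is the contrast by which the gene was picked. In such bulk libraries, more cells with COQ2 mRNA and more COQ2 mRNA per cell cannot be told apart. The fitted log2 fold change was 5.02, the 96th highest value of 18203 genes, or the 19th of 13376 when only genes with a mean of at least 1 CPM over the 8 libraries are counted.

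In NCI-H1581 and NCI-H1581R, COQ2 was present at intermediate levels but the replicates did not match. The NCI-H1581 libraries held 94 and 566 counts, or 2.79 and 14.1 CPM. The NCI-H1581R libraries held 55 and 419 counts, or 1.46 and 10.6 CPM. Replicate 2 was the high library in both variants, 5.07-fold above replicate 1 in NCI-H1581 and 7.28-fold above it in NCI-H1581R, and the 2 variants overlapped. Across the 9 other genes and all 4 variants, replicates were never more than 1.56-fold apart. Of 13376 genes with a mean of at least 1 CPM, 23 (0.172%) differed between replicates by 4-fold or more in the same direction in both NCI-H1581 variants, a count made after the COQ2 values had been seen. In the NCI-H1703 variants replicate 2 was also the higher library, by 1.04-fold and 1.07-fold.

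**Figure D1:**
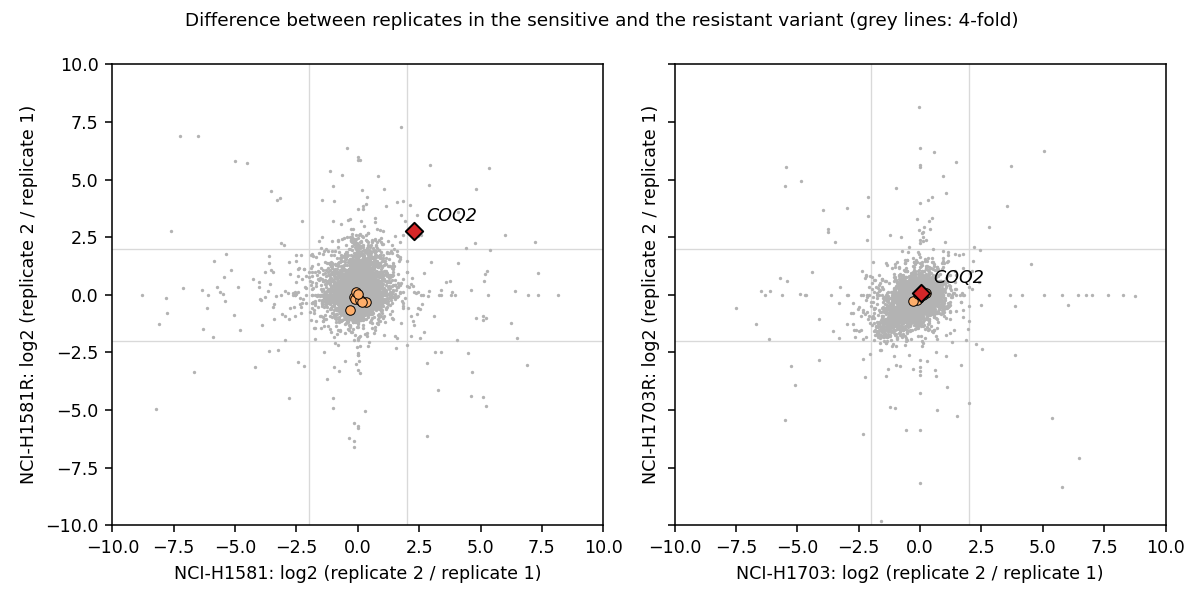
Log2 ratio of replicate 2 to replicate 1 in the sensitive variant (horizontal axis) and the resistant variant (vertical axis) of NCI-H1581 (left) and NCI-H1703 (right), for 13376 genes with a mean of at least 1 CPM. COQ2 (red diamond) lies beyond the 4-fold lines on the left and near the origin on the right, and the other 9 coenzyme Q synthesis genes (orange circles) lie near the origin in both panels.

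Resistance did not change COQ2 detectably in NCI-H1581. The log2 fold change of NCI-H1581R over NCI-H1581 was -0.50 with an SE of 0.92 and a 95% interval from -2.70 to 1.71 (edgeR quasi-likelihood test, adjusted p = 0.803), so that the spread between replicates leaves a wide range of changes possible. Within replicate 1 the log2 ratio of the CPM values was -0.93 and within replicate 2 it was -0.41. With the replicate number as a block the log2 fold change was -0.55 (adjusted p = 0.284). Because the replicates stood so far apart, leaving out 1 library compared unequal sets of replicates. Without NCI-H1581 replicate 2 the log2 fold change was 1.13, without NCI-H1581R replicate 1 it was 0.29, and without NCI-H1581R replicate 2 it was -2.59.

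Ordered by mean CPM, COQ2 was lowest in NCI-H1703, followed by NCI-H1581R (6.05 ± 6.49, SD, n = 2), NCI-H1581 (8.46 ± 8.02, SD, n = 2) and NCI-H1703R. The middle variants did not differ beyond their spread. The mean of sensitive NCI-H1581 was 8.75-fold above that of sensitive NCI-H1703, and the mean of NCI-H1703R was 3.62-fold above that of NCI-H1581. Both ratios depended on the NCI-H1581 library, the first being 2.89 with replicate 1 alone and 14.6 with replicate 2 alone, and the second 11.0 and 2.17. From the lowest to the highest library COQ2 spanned a 33.4-fold range. The ranges of the other genes ran from 1.23-fold for PDSS1 to 3.22-fold for COQ9.

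**Figure D2:**
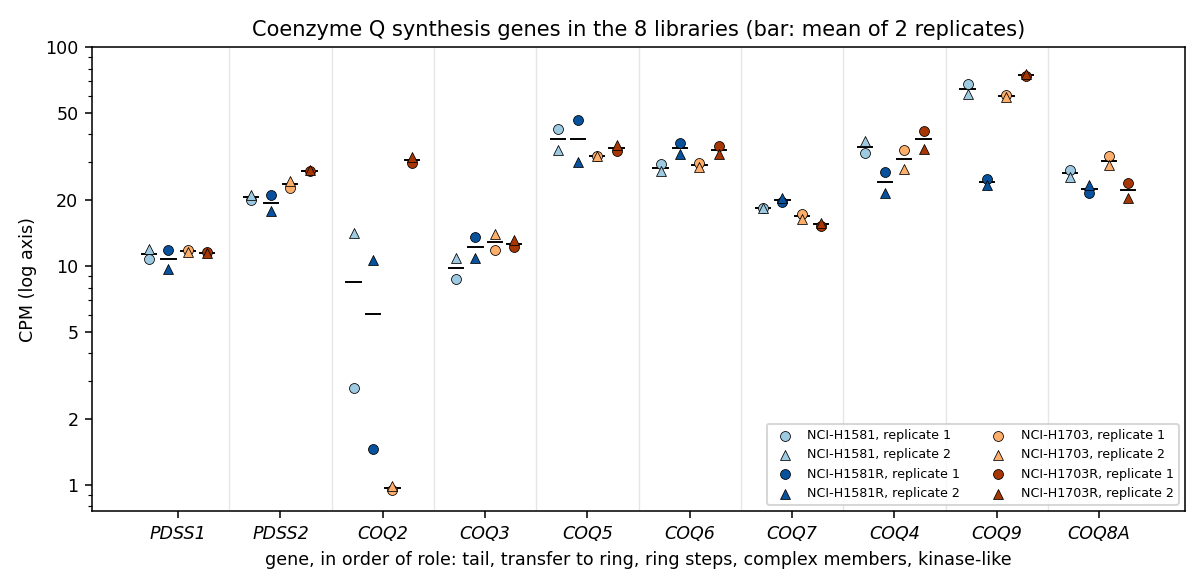
CPM (log axis) of the 10 coenzyme Q synthesis genes in each of the 8 libraries, with circles for replicate 1, triangles for replicate 2 and a bar at the mean of the 2 replicates of each variant. COQ2 runs from 0.946 to 31.6 CPM with the NCI-H1581 replicates far apart, COQ9 is low in both NCI-H1581R libraries, and the other genes stay within a 2-fold range.

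The rest of the pathway did not follow COQ2 in NCI-H1703R. Of the 9 other genes, 1 was called at an adjusted p under 0.1 in NCI-H1703R against NCI-H1703, where 14.7% of all genes tested were called, and this was COQ9. The 95% intervals of the 9 log2 fold changes all lay between -0.73 and 0.69, which is a change of at most 1.65-fold in either direction. The variants did not overlap in CPM for 7 of the 9 genes, a pattern that 51.3% of all genes showed. The median log2 fold change of the 9 genes was 0.15, beside 0.00 over all genes.

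Among the genes that make the tail, PDSS1 had 11.9 and 11.6 CPM in NCI-H1703 and 11.6 and 11.5 CPM in NCI-H1703R, with a log2 fold change of 0.01 (95% interval from -0.32 to 0.33). PDSS2 had 22.8 and 24.6 CPM in NCI-H1703 and 27.2 and 27.4 CPM in NCI-H1703R, with a log2 fold change of 0.24 (adjusted p = 0.257). The values of PDSS1 overlapped between the variants, and those of PDSS2 did not. COQ3, the O-methyltransferase of the ring, had 11.8 and 14.0 CPM in NCI-H1703 and 12.2 and 13.1 CPM in NCI-H1703R, and its log2 fold change was 0.01 (95% interval from -0.37 to 0.39). For COQ5, the C-methyltransferase, COQ6, a monooxygenase, and COQ7, the hydroxylase of a late ring step, the log2 fold changes were 0.15, 0.25 and -0.09, none of them called.

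COQ9, which binds the lipid intermediate and hands it to COQ7, had 60.7 and 59.2 CPM in NCI-H1703 and 73.6 and 75.4 CPM in NCI-H1703R. It rose 1.27-fold, with a log2 fold change of 0.34 and an SE of 0.08 (edgeR quasi-likelihood test, adjusted p = 0.0654). This call was lost whichever of the 4 libraries was left out, with log2 fold changes between 0.32 and 0.37. Such fits hold a lone library of a variant, and the share of all genes called in them is not given here. COQ4, a scaffold protein of the assembly, had 33.8 and 28.0 CPM in NCI-H1703 and 41.6 and 34.4 CPM in NCI-H1703R (log2 fold change 0.33, adjusted p = 0.240). COQ8A had 31.7 and 28.9 CPM in NCI-H1703 and 24.1 and 20.6 CPM in NCI-H1703R (log2 fold change -0.41, adjusted p = 0.116), so that the 2 variants did not overlap for either gene.

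When the replicate number was included in the fit as a block, 5 of the 9 genes were called in NCI-H1703R, beside 34.9% of all genes. COQ4 (adjusted p = 0.0145), COQ6 (adjusted p = 0.0545), COQ9 (adjusted p = 0.0046) and PDSS2 (adjusted p = 0.0922) were then called as higher and COQ8A (adjusted p = 0.00926) as lower. The size of the changes was nearly the same with and without the block. In transcript sequence, 55.9% of the words of COQ8A were shared with the locus ENSG00000288674 and 40.9% of those of COQ6 with other genes, mainly ENTPD5 and FAM161B, so that the counts of these 2 genes depend on how shared reads were divided.

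**Figure D3:**
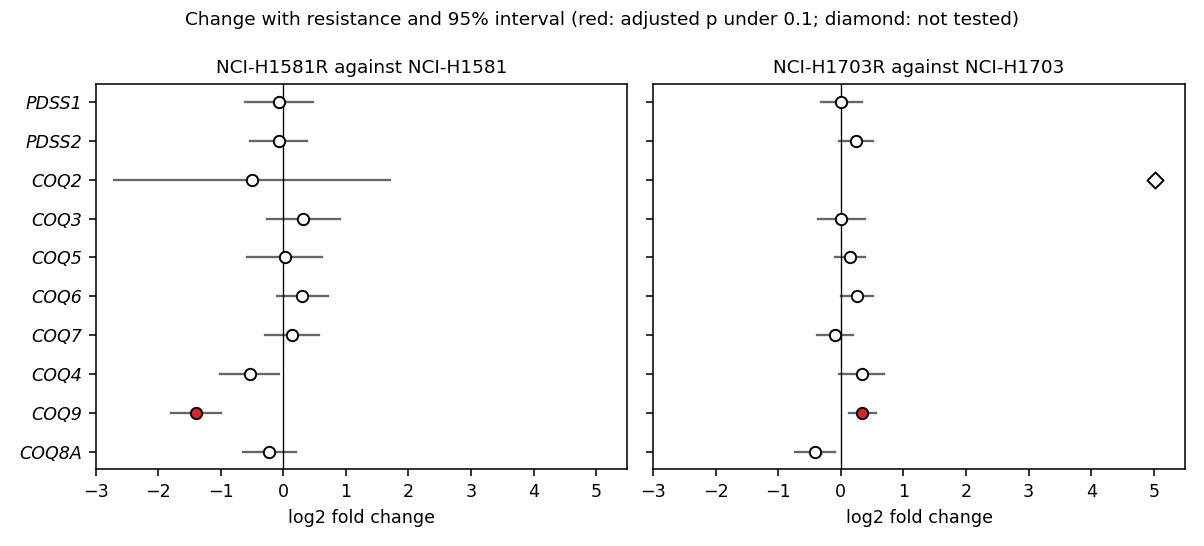
Log2 fold change of the resistant over the sensitive variant with its 95% interval for each coenzyme Q synthesis gene, in NCI-H1581 (left) and NCI-H1703 (right). COQ9 lies at -1.40 on the left and 0.34 on the right, both called, and COQ2 lies at 5.02 on the right, drawn as a diamond without an interval because it was chosen for that value.

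In NCI-H1581R the gene that changed was COQ9, and it fell. Its libraries had 68.0 and 61.0 CPM in NCI-H1581 and 25.1 and 23.4 CPM in NCI-H1581R, with counts of 2291 and 2444 against 946 and 922. All resistant values lay far below all sensitive ones, at 24.3 ± 1.21 CPM against 64.5 ± 4.92 CPM (SD, n = 2 each). COQ9 was 2.64-fold lower in NCI-H1581R, a log2 fold change of -1.40 with an SE of 0.17 and a 95% interval from -1.80 to -0.998 (edgeR quasi-likelihood test, adjusted p = 0.0034), and the log2 ratio was -1.44 within replicate 1 and -1.38 within replicate 2. The call held whichever of the 4 libraries was omitted. COQ9 lies on the plus strand of chromosome 16 at 57447425 to 57461270, and 1.92% of its transcript words were shared with another locus.

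COQ9 was the 1 gene called of the 10 in NCI-H1581R, where 15.1% of all genes tested were called. COQ4 had 33.1 and 37.3 CPM in NCI-H1581 and 26.8 and 21.5 CPM in NCI-H1581R, without overlap, and its log2 fold change of -0.53 (95% interval from -1.003 to -0.07) did not pass (adjusted p = 0.155 with edgeR). With DESeq2, which called 17.7% of all genes, the adjusted p of COQ4 was 0.0985, and without NCI-H1581R replicate 1 it was 0.0331 with edgeR. COQ8A had 27.4 and 25.7 CPM against 21.7 and 23.5 CPM (log2 fold change -0.22), also without overlap and not called.

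The remaining enzymes stayed within a narrow range in NCI-H1581R. The log2 fold changes were 0.32 for COQ3, 0.02 for COQ5, 0.31 for COQ6, 0.14 for COQ7 and -0.07 for each of PDSS1 and PDSS2, and their 95% intervals together reached from -0.61 to 0.90. COQ5 had 42.2 and 33.9 CPM in NCI-H1581 and 46.6 and 29.9 CPM in NCI-H1581R, the widest spread between replicates among the genes other than COQ2. Over the 9 genes other than COQ2 the variants did not overlap for 6, a pattern shown by 50.6% of all genes, and the median log2 fold change was -0.07 beside 0.04 over all genes.

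COQ9 and COQ4 changed differently in the 2 lines. In an interaction test over all 8 libraries the change in NCI-H1703 exceeded that in NCI-H1581 by 1.72 on the log2 scale for COQ9 (SE 0.17, 95% interval from 1.34 to 2.10, adjusted p = 0.000455). For COQ4 the difference was 0.84 (SE 0.25, adjusted p = 0.0685). These were 2 of 9 genes, where 15.4% of all genes were called. The COQ9 call held without each of the 8 libraries, whereas the COQ4 call was kept only without NCI-H1581R replicate 1 (adjusted p = 0.0282) or NCI-H1703R replicate 2 (adjusted p = 0.0989) and was lost without any of the other 6, at adjusted p from 0.105 without NCI-H1581R replicate 2 to 0.233 without NCI-H1703R replicate 1.

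Between the sensitive lines, the levels of the 9 genes other than COQ2 were not detectably different. With edgeR 0 of 9 were called, where 62.9% of all genes were, and 0 had an unadjusted p under 0.05. DESeq2 also called 0, beside 58% of all genes. The log2 fold changes of NCI-H1703 over NCI-H1581 ran from -0.25 for COQ5 to 0.38 for COQ3, and their 95% intervals allowed a difference of at most 1.79-fold. With the replicate block, which called 62.7% of all genes, COQ3 was called (adjusted p = 0.0842). Without NCI-H1581 replicate 2, COQ3 and COQ5 were called, in a fit whose share of all genes called is not given here.

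Per kilobase of MANE Select transcript, COQ9 and COQ4 were the most abundant members in sensitive NCI-H1703, at 36.8 and 24.8 CPM per kb, followed by COQ5 at 21.2 CPM per kb and COQ6 at 13.8 CPM per kb. COQ2, at 0.634 CPM per kb, was the lowest, well under the next gene, COQ7, at 6.41 CPM per kb. In NCI-H1703R the mean of COQ2 was 20.1 CPM per kb, between COQ6 at 16.1 CPM per kb and COQ5 at 23.0 CPM per kb. In NCI-H1581 the mean of COQ2 was 5.55 CPM per kb, the lowest of the 10 members, but this rank rested on replicate 1 (1.83 CPM per kb), since in replicate 2 COQ2 had 9.27 CPM per kb and stood above COQ3, COQ7, COQ8A, PDSS1 and PDSS2. COQ9 at 39.6 CPM per kb was the highest. In NCI-H1581R the mean of COQ9 was 14.9 CPM per kb, below COQ5 at 25.4, COQ4 at 19.4 and COQ6 at 16.4 CPM per kb.

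None of the genes next to COQ2 showed its pattern. Within 500 kb of its start, 11 protein-coding genes had enough counts. In NCI-H1703R against NCI-H1703, 2 of them were called with edgeR, where 14.7% of all genes were. Both were lower, PLAC8 (log2 fold change -1.42, adjusted p = 0.00928) and GPAT3, a glycerol-3-phosphate acyltransferase (log2 fold change -0.52, adjusted p = 0.0943). The nearest gene, HPSE, which encodes heparanase and starts 50.2 kb away, had 110 and 106 counts in NCI-H1703 and 165 and 137 counts in NCI-H1703R, a log2 fold change of 0.41 that did not pass (adjusted p = 0.386). The other 8 neighbours had log2 fold changes between -0.25 and 0.27. In NCI-H1581R against NCI-H1581, 1 of the 11 was called, where 15.1% of all genes were. This was SCD5, a stearoyl-CoA desaturase, with 175 and 159 counts against 7 and 15 (log2 fold change -3.97, adjusted p = 0.00485). In none of the 11 neighbours was replicate 2 at 4-fold or more above replicate 1 in both NCI-H1581 and NCI-H1581R, as it was for COQ2.

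**Figure D4:**
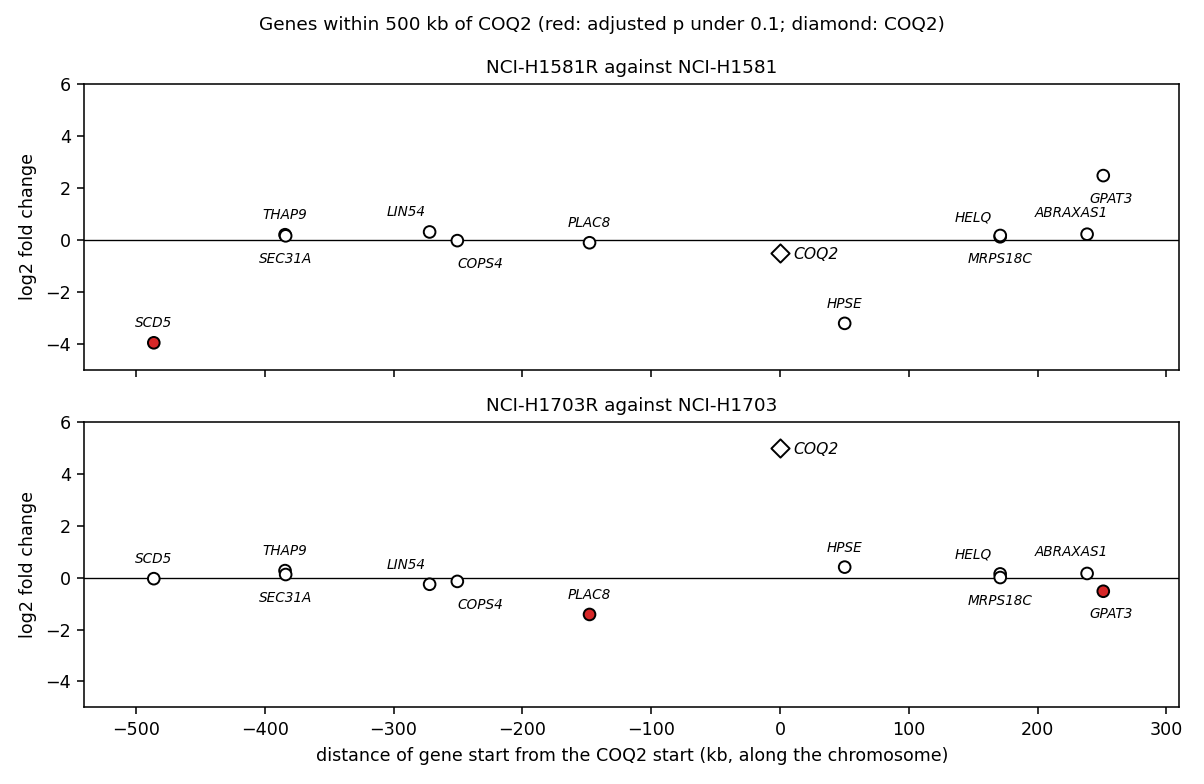
Log2 fold change of the resistant over the sensitive variant in NCI-H1581 (top) and NCI-H1703 (bottom) for the 11 genes within 500 kb of COQ2, by the distance of their start from that of COQ2 in kb. In the lower panel COQ2 stands alone at 5.02, with PLAC8 and GPAT3 below 0, and in the upper panel SCD5 lies at -3.97.

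The genes whose log2(CPM + 1) over the 8 libraries was most like that of COQ2 were RRAGC (Pearson r = 0.973), a Rag GTPase of amino acid sensing, LSG1 (r = 0.967), KATNAL2 (r = 0.952), PFKFB2 (r = 0.910) and ARMCX3 (r = 0.906). The likeness was one of shape rather than size, since their highest library was between 1.22-fold and 2.73-fold above their lowest. The 8 points are not independent of one another because they share the 4 variants, and same-numbered libraries may share a run. Over the same libraries r between COQ2 and the other members ran from -0.62 for COQ8A to 0.39 for COQ4.

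Around the synthesis genes, lists of genes that supply, assist or use coenzyme Q were counted in the same fits. Of the 9 mevalonate steps measured, 4 fell in NCI-H1703R and none rose, where 14.7% of all genes were called in either direction, with a median log2 fold change of -0.34. Among these were ACAT2, which makes acetoacetyl-CoA (log2 fold change -0.48), FDPS, the synthase of farnesyl diphosphate (log2 fold change -0.44), and PMVK, the phosphomevalonate kinase (log2 fold change -0.39). In NCI-H1581R, where edgeR called 15.1% of all genes, 1 of the 9 steps was called. This was MVD, the decarboxylase that forms isopentenyl diphosphate, with 140.4 and 142.0 CPM against 86.4 and 80.2 CPM (log2 fold change -0.75, adjusted p = 0.0297). The median of the list there was -0.23. With the replicate block all 9 steps were called in NCI-H1703R, beside 34.9% of all genes, 8 as lower and GGPS1, the synthase of geranylgeranyl diphosphate, as higher.

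Of 9 accessory factors, HPDL was not kept and HPD had at most 4 counts in a library. Among the other 7, COQ10A, which binds coenzyme Q, and FDX2, a mitochondrial ferredoxin, rose in NCI-H1703R with edgeR. It called 14.7% of all genes there. With DESeq2 the adjusted p of FDX2 was 0.137, so that its call was lost, and STARD7, a lipid transfer protein, was called as lower instead (adjusted p = 0.0931). COQ10A had 9.57 and 9.66 CPM in NCI-H1703 and 14.0 and 13.6 CPM in NCI-H1703R (log2 fold change 0.56, adjusted p = 0.0635), and the median of the 7 was 0.35. In NCI-H1581R edgeR and DESeq2 called 0 of them, beside 15.1% and 17.7% of all genes. There 0 had an unadjusted p under 0.05, and their median was -0.06. With the replicate block 5 of the 7 were called in NCI-H1703R, 4 higher and 1 lower, beside 34.9% of all genes.

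Among 12 enzymes that reduce coenzyme Q, 2 fell in NCI-H1581R, a share near the 15.1% of all genes called there. AIFM2, which reduces coenzyme Q at the plasma membrane and is known as FSP1 for limiting ferroptosis, had 54.2 and 46.3 CPM in NCI-H1581 and 10.9 CPM in each NCI-H1581R library (log2 fold change -2.19, adjusted p = 0.000766). The other was DHODH, the dehydrogenase of pyrimidine synthesis (log2 fold change -0.77, adjusted p = 0.0709). AIFM2 was low in all 4 NCI-H1703 and NCI-H1703R libraries, at 0.633 to 1.22 CPM. In NCI-H1703R, ETFDH, which passes electrons from fatty acid oxidation, had 16.5 and 18.6 CPM against 27.0 and 30.7 CPM (log2 fold change 0.75, adjusted p = 0.0261), and NQO1, a quinone reductase, was also called as higher (log2 fold change 0.49, adjusted p = 0.0655). The medians of the list were -0.31 in NCI-H1581R and 0.19 in NCI-H1703R. With the block 7 of the 12 genes were called in NCI-H1703R, all higher, beside 34.9% of all genes. Without the block 14.7% of all genes were called there.

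Of 10 subunits of complex III, which oxidises coenzyme Q, MT-CYB, the mitochondrially encoded cytochrome b, fell in NCI-H1581R from 3562 and 2630 CPM to 1353 and 1498 CPM (log2 fold change -1.11, adjusted p = 0.038). CYC1 and UQCRC1 fell in NCI-H1703R, CYC1 with 324.3 and 328.4 CPM in NCI-H1703 and 221.4 and 265.5 CPM in NCI-H1703R (log2 fold change -0.39, adjusted p = 0.092). The medians of the 10 were -0.23 in NCI-H1581R and 0.11 in NCI-H1703R. With the block 7 were called in NCI-H1703R, 4 higher and 3 lower, beside 34.9% of all genes. Without the block, edgeR called 1 in NCI-H1581R and 2 in NCI-H1703R, beside 15.1% and 14.7% of all genes. Between the sensitive lines, where 62.9% of all genes were called, all 9 mevalonate steps were called, 8 of them lower in NCI-H1703, as were 7 of the 7 accessory factors with counts, 11 of the 12 reducing enzymes and 6 of the 10 complex III subunits.

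**Figure D5:**
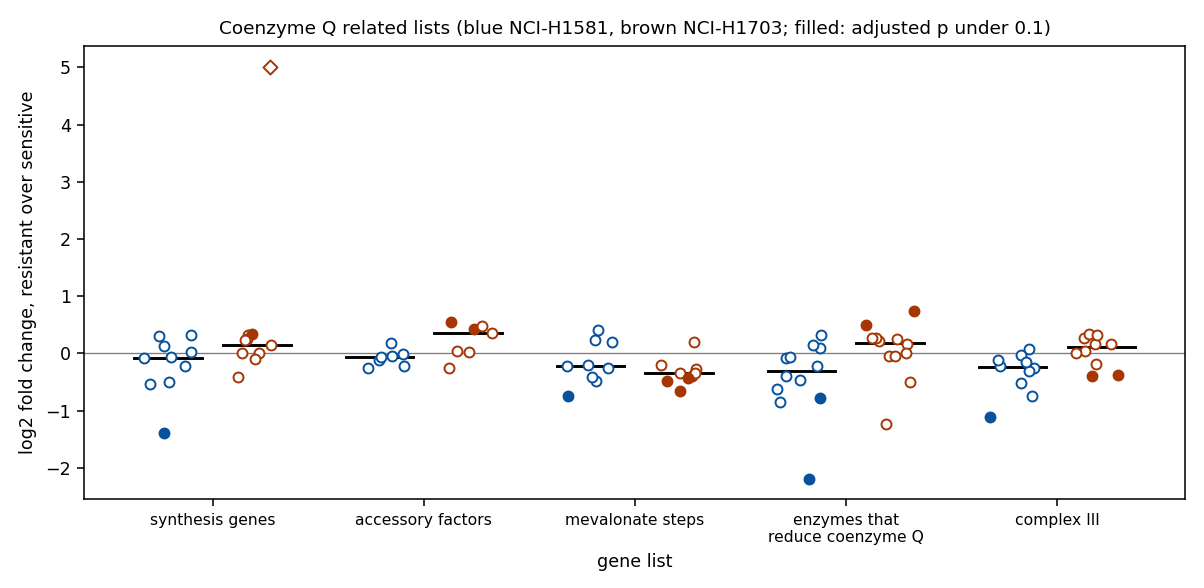
Log2 fold change of the resistant over the sensitive variant for the coenzyme Q synthesis genes and for the lists of related genes, in NCI-H1581 (blue) and NCI-H1703 (brown), with filled symbols for an adjusted p under 0.1 and a black bar at the median of the genes tested (HPD not drawn). COQ2 is the brown diamond at 5.02, AIFM2 is the blue point at -2.19, and the mevalonate steps have a median of -0.34 in NCI-H1703.

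Epithelial markers were uneven. All 4 had negative log2 fold changes in NCI-H1703R, but edgeR called only 1, KRT18, where 14.7% of all genes were called. EPCAM (log2 fold change -0.30, edgeR adjusted p = 0.912) and CDH1 (log2 fold change -0.77, edgeR adjusted p = 0.375) had few counts and were not called there. KRT18, a keratin of simple epithelia, had 2380 and 2188 counts in NCI-H1703 and 109 and 94 counts in NCI-H1703R (log2 fold change -4.56), the same contrast in which COQ2 was high. KRT8, its usual partner, had 269 and 147 counts in NCI-H1703 and 122 and 77 counts in NCI-H1703R, a log2 fold change of -1.13 with an adjusted p of 0.121 by edgeR, 0.0042 with the block and 0.0645 by DESeq2. EPCAM had 537 and 524 counts in NCI-H1581, 309 and 284 counts in NCI-H1581R (a log2 fold change of -0.90 with an adjusted p of 0.057) and 3 to 26 counts in the NCI-H1703 and NCI-H1703R libraries, and CDH1 had 10 to 46 counts throughout. The leukocyte marker PTPRC had at most 15 counts and was at 0 in the NCI-H1703 and NCI-H1703R libraries, CD3E was at 0 in all 8, and the endothelial markers PECAM1 and CDH5 had at most 18 and 1. Whether the KRT18 difference has a bearing on any result above was not tested.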

How the data were processed

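Per the labels and the study's methods, total RNA was sequenced as paired reads, trimmed with cutadapt, quantified with Salmon against GRCh38 and summed to genes with tximport. The authors deposited the resulting estimated counts as whole numbers, without normalisation. The versions, annotation, strand setting and tximport scaling were not given in the sources used here.

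Genes whose counts summed to 10 or more across the table were kept (18203). Each line was fitted separately with edgeR 4.0.16 in R 4.3.3 (TMM factors, quasi-likelihood test, two-sided), as the study analysed the lines separately, and p-values were adjusted by the Benjamini-Hochberg method over all genes kept. Genes under an adjusted p of 0.1 were called. The difference between lines was an interaction term over all 8 libraries. DESeq2 1.42.0, RLE factors, other count filters, legacy quasi-dispersions, a single fit and leaving out libraries were alternatives. The code was tested on simulated data. CPM used TMM factors, and gene positions and 31-base words came from GENCODE v44 and promoter windows from RefSeq on GRCh38.p14.

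Members and lists were chosen with earlier results of these data known. Genes named beyond the members were the called gene with the largest rise and the largest fall of each list in each line, the neighbours within 500 kb of COQ2 and the 5 genes most like it. Other genes were named after their values were seen. The result of 1 gene that this rule names is not reported here. The study's methods state that the procedure was repeated for the second replicate. The replicate number was read as a run in the block, although it is not stated that same-numbered libraries were handled together. Deviations of same-numbered libraries correlated at r = 0.132 between NCI-H1581 and NCI-H1581R and at r = 0.368 between NCI-H1703 and NCI-H1703R, over 13020 genes. Between the lines the correlations were negative, from -0.396 for NCI-H1581R with NCI-H1703R to -0.020 for NCI-H1581 with NCI-H1703. In fits that hold both lines, the replicate block uses a single replicate term, so a run shared by both lines was assumed there. With 2 cultures of each variant from 1 selection, p-values measure the spread between cultures of a variant and not between independent selections.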

Additional observations from a re-analysis of the deposited data

Results flagged for a closer look

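The change with resistance differed between the lines in the interaction test for 9 of the genes named (edgeR, adjusted p under 0.1, 15.4% of all genes). COQ2, the genes most like it and genes picked after the values of COQ9 were left aside. The 9 come from no fixed list, so they cannot be set against that share. AIFM2, COQ10A, MVD and DHODH were named for, or after seeing, their change within a line. That change is part of this contrast, so their adjusted p is no independent result. For COQ9 the NCI-H1703 change exceeded the NCI-H1581 change by 1.72 on the log2 scale (adjusted p = 0.000455), and both resistant libraries moved down in NCI-H1581R and up in NCI-H1703R. For COQ4 the difference was 0.84 (adjusted p = 0.0685). For AIFM2 it was 2.12 (adjusted p = 0.0323), with about 1 CPM or less in the NCI-H1703 and NCI-H1703R libraries. The difference was 0.79 for COQ10A (adjusted p = 0.0571) and 0.53 for MVD (adjusted p = 0.0632), a gene with a negative log2 fold change in both lines. For DHODH it was 0.76 (adjusted p = 0.082), for the epithelial marker KRT18 it was -4.54 (adjusted p = 0.00135), and for the COQ2 neighbours SCD5 and GPAT3 it was 3.91 (adjusted p = 0.00132) and -3.03 (adjusted p = 0.0448).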

How the results depend on the processing

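COQ2 in NCI-H1703R had log2 fold changes of 4.98 to 5.02 under the alternatives and 4.96 to 5.07 when libraries were left out. In NCI-H1581R it ranged from -2.59 to 1.13 with libraries left out, positive without NCI-H1581 replicate 2 (1.13) or NCI-H1581R replicate 1 (0.29).

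The number of synthesis genes called in NCI-H1581R was 1, and 2 with DESeq2 and with a single fit of all libraries (COQ4 and COQ9), with a range of 1 to 2 when libraries were left out. In NCI-H1703R it was 1, and it was 2 with DESeq2 or with at least 10 counts in every library (COQ8A and COQ9), 5 with the replicate block and 0 with the single fit. No call was kept in the fits without a library, where the lone library of a variant is assumed to vary like the other groups. The share of all genes called in those fits, in the single fit and with DESeq2 in NCI-H1703R is not given here. These results therefore cannot be set against all genes. Between the sensitive lines it was 0, with 1 under at least 10 counts in every library (COQ5), 1 with the block (COQ3) and 0 to 2 with libraries left out. For the difference between lines it was 2, and 1 to 2 with libraries left out. A block within each line, chosen after seeing the data, left it at 2.

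List counts moved most under the block in NCI-H1703R, from 2 to 5 accessory factors, 4 to 9 mevalonate steps, 2 to 7 reducing enzymes and 2 to 7 complex III subunits, while the count over all genes went from 2683 to 6356. In NCI-H1581R, where edgeR without the block called 15.1% of all genes, the block called 2 complex III subunits in place of 1. DESeq2, which called 17.7% of all genes there, called 3 mevalonate steps in place of 1, 5 reducing enzymes in place of 2 and 3 complex III subunits in place of 1. For the difference between lines, where 15.4% of all genes were called without the block, the block called 1 reducing enzyme in place of 4. The share of all genes called with the block in NCI-H1581R and for the difference between lines is not given here. Among the synthesis genes the block changed no call in NCI-H1581R or in the difference between lines.

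Other changes of sign were in values that were not called. For COQ3 in NCI-H1703R the log2 fold change was -0.0091 with DESeq2, -0.0064 with RLE factors, -0.0015 with 10 counts in every library, -0.023 in the single fit and -0.13 to 0.15 with libraries left out. For PDSS1 in NCI-H1703R the first 4 were -0.0084, -0.0085, -0.0033 and -0.026. For COQ5 in NCI-H1581R it was -0.0052 with DESeq2, -0.0047 with RLE factors, -0.0052 with the block and -0.32 to 0.29 with libraries left out. With libraries left out the ranges were -0.21 to 0.046 for PDSS1 and -0.19 to 0.023 for PDSS2 in NCI-H1581R, -0.0071 to 0.10 for COQ6 and -0.026 to 0.12 for PDSS1 between the sensitive lines, and -0.18 to 0.46 for COQ5, -0.16 to 0.015 for COQ6 and -0.081 to 0.20 for PDSS1 in the difference between lines. The cause of these shifts was not tested. Counts of about 33 to 94 for COQ2 in 4 of the libraries limit the precision of its low values, and the 2 libraries of each variant limit every test.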

Other observations

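KRT13, a keratin of stratified epithelia, was another gene that differed by replicate number, picked after its values were seen. It had 3, 5, 6 and 4 counts in replicate 1 of NCI-H1581, NCI-H1581R, NCI-H1703 and NCI-H1703R and 123, 107, 99 and 108 counts in replicate 2. For COQ2, replicate 2 was far above replicate 1 in NCI-H1581 and NCI-H1581R and within 1.07-fold of it in NCI-H1703 and NCI-H1703R.

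The genes within 100 kb of the COQ9 start, a window also chosen after the COQ9 values were seen, numbered 7. CIAPIN1, whose start lies next to that of COQ9 on the opposite strand, had 6745 and 7207 counts in NCI-H1581 and 4305 and 3034 in NCI-H1581R, a log2 fold change of -0.98, and -0.08 in NCI-H1703R. POLR2C had log2 fold changes of -0.77 and -0.18, and DOK4 of -0.73 and 0.56, in NCI-H1581R and NCI-H1703R respectively. For COQ9 the same values were -1.40 and 0.34. Of the other genes in the window, CCDC102A had log2 fold changes of -0.35 and -0.38. CCL22, CX3CL1 and ADGRG5 had at most 27 counts in a library. None of these other genes was called in either line.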
